A study of Mus musculus with 13 samples.

Results

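The 10 genes described here encode the core of transforming growth factor beta (TGF-beta) supply and reception: the ligands Tgfb1, Tgfb2 and Tgfb3, the receptors Tgfbr1 and Tgfbr2, the latent TGF-beta binding proteins Ltbp1, Ltbp2, Ltbp3 and Ltbp4, and the inhibitor Smad7. They were chosen by symbol, and each symbol matched 1 of the 55471 Ensembl gene IDs in the deposited count table. All 10 were among the 15000 genes that passed a filter on low counts. Whole mouse hearts were profiled by poly(A)-selected bulk RNA-seq in 3 groups. R502W mavacamten hearts (4 libraries) came from R502W mice given the cardiac myosin inhibitor mavacamten at 2.5 mg/kg/day by drinking water over 21 weeks, R502W control hearts (4 libraries) from R502W mice labelled control, and WT control hearts (5 libraries) from wild-type mice labelled control. R502W names a variant of cardiac myosin-binding protein C, a thick-filament protein. The design text puts the mice at 24 weeks of age, while the extraction protocol speaks of 3-week and 18-week hearts. Strain, zygosity and what the control mice drank are not given in the sources used here.

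TGF-beta ligands leave the cell in a latent form, folded into their own propeptide. Most of this latent complex is bound covalently to an LTBP, which anchors it to fibrillin and fibronectin in the matrix until integrins, thrombospondin or proteases release it. Free ligand binds the type II receptor, Tgfbr2, which recruits and phosphorylates the type I receptor, Tgfbr1, and that kinase activates SMAD transcription factors. In heart muscle the pathway is best known for driving fibroblasts to make collagen. Smad7 blocks the type I receptor and is itself a target of the pathway.

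Library totals ran from 16001651 to 17520706 expected counts in R502W mavacamten hearts, from 15350622 to 19361103 in R502W control hearts and from 15420583 to 18218404 in WT control hearts. Cardiomyocyte markers summed to at least 44840 CPM (the count relative to the TMM-scaled library total) in every library. In 3 libraries the atrial growth factor gene Bmp10 was under 10 CPM, with values of 6.23 CPM (R502W mavacamten replicate 3), 1.57 CPM (R502W control replicate 1) and 8.33 CPM (WT control replicate 3). It was 307 to 672 CPM elsewhere. The 8 listed atrial markers, Bmp10 among them, summed to 3187, 5454 and 6609 CPM in those 3 libraries, in the same order. The first of these sums was the lowest of its group. In the other groups the lowest sums were in R502W control replicate 3 (4353 CPM) and WT control replicate 1 (3964 CPM). Low Bmp10 therefore does not stand for a low atrial sum in each of the 3 libraries. WT control replicate 2 held 384 CPM of 10 summed lymphocyte markers, against at most 37.1 CPM in each other library. In bulk tissue, fewer cells of a type and less RNA per cell cannot be told apart. Each library name holds its own number, but the labels do not say whether these numbers are separate animals. The spread behind every p-value here may therefore be partly technical.

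Per kilobase of exonic length, Ltbp4 stood far above the other 9 genes. Its mean over the 13 libraries was 88.5 CPM per kb with a range of 68.0 to 107 CPM per kb, and no library of another member exceeded 11.6 CPM per kb. Below it came Tgfbr2 (9.82 CPM per kb), Ltbp3 (9.20), Tgfb3 (7.68), Ltbp1 (6.75), Tgfb1 (5.34), Smad7 (4.87), Tgfbr1 (3.46), Tgfb2 (2.28) and Ltbp2 (1.91). From Tgfbr2 down, the ranges of neighbours in this order overlapped, so no step between neighbours exceeded the spread over libraries. Among the ligands, Tgfb3 made up 50%, 49.1% and 51.0% of the summed CPM per kb in R502W mavacamten, R502W control and WT control hearts. Tgfb2 was the smallest part, at 15.4% ± 1.97 in R502W mavacamten hearts, 17.5% ± 2.66 in R502W control hearts and 12.1% ± 2.51 in WT control hearts (SD). Ltbp4 made up 82.6%, 84.2% and 82.7% of the summed LTBP level in the same order of groups. The order and the shares depend on exonic length merged over all annotated transcripts, 5042 bases for Tgfb1 and 3383 bases for Tgfb3. Before division by length, Tgfb1 and Tgfb3 had similar means over the 13 libraries, 26.9 and 26 CPM. These shares are descriptions and were not tested.

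**Figure D1:**
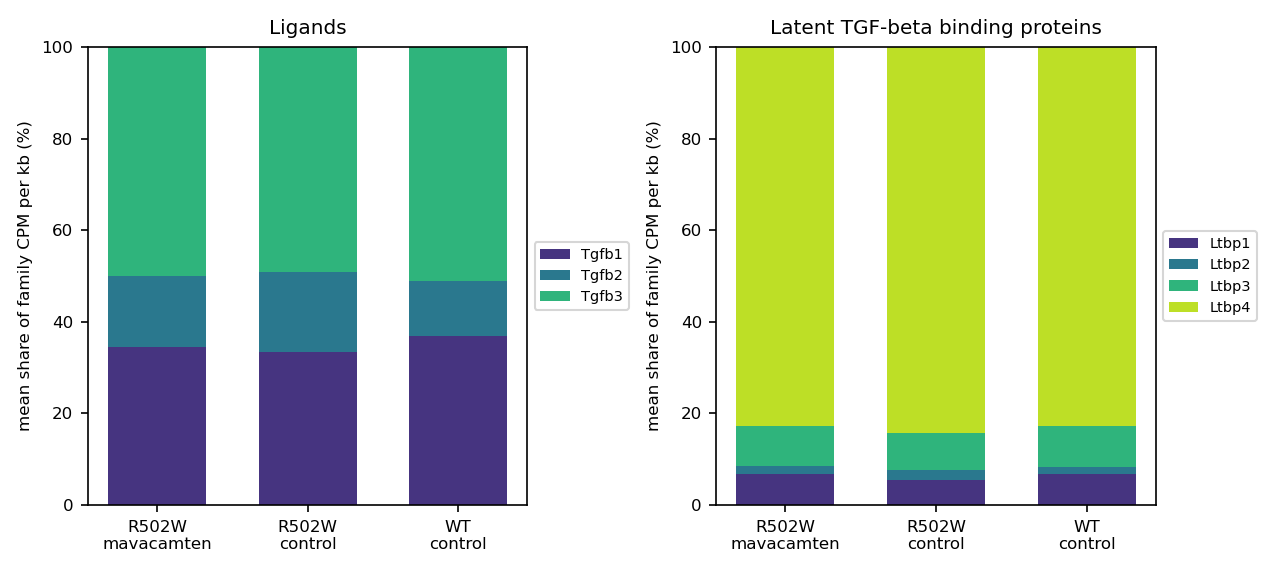
Mean share of each gene in the summed CPM per kilobase of its family, in percent, for the 3 ligands (left) and the 4 latent binders (right) in R502W mavacamten, R502W control and WT control hearts. Tgfb3 holds about the same share in each group (50%, 49.1% and 51.0%) and Ltbp4 takes over 80% of the LTBP bar in each.

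The genotype comparison asked how R502W control hearts differed from WT control hearts. Tgfb2, the ligand best known from valve and outflow tract development, was 1.65-fold higher in R502W control hearts and was the only one of the 10 genes that edgeR's quasi-likelihood test called, with a Benjamini-Hochberg adjusted p under 0.05 over all genes tested. That is 1 of 10, against 12.4% of all genes tested in this comparison (8.63% higher and 3.75% lower). Of all calls 69.7% were higher, against 55% with upper quartile scaling. At an unadjusted p under 0.05 there were 3 of 10 (Tgfb2, Ltbp2 and Ltbp4), against 29.1% of all genes. Groups did not overlap for 2 of 10 (Ltbp2 and Ltbp4), against 17.7% of all genes. None of these counts stands apart from the background. Of the 10 fold changes 8 were above 0, with a median log2 of 0.15, against 48.9% above 0 and a median of -0.01 over all genes. With upper quartile scaling 6 of 10 were above 0.

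Tgfb2 (ENSMUSG00000039239; GRCm38 chromosome 1, 186622792 to 186705989, minus strand) had 20.4, 17.6, 16.5 and 12.2 CPM in R502W control hearts, against 9.24, 7.14, 11.1, 10.1 and 13 CPM in WT control hearts. The groups overlapped through the lowest R502W control library, replicate 4, which lay below the highest WT control library, replicate 5. Means were 16.7 ± 3.41 CPM (SD, n = 4) and 10.1 ± 2.19 CPM (SD, n = 5). On the log2 scale the difference was 0.72 ± 0.19 (SE), with an edgeR adjusted p of 0.0283. The call ended when R502W control replicate 1, 2 or 3 or WT control replicate 1 or 2 was left out, with log2 values of 0.58 to 0.85 and adjusted p-values of 0.0192 to 0.0946 over the 13 left-out runs. It also ended without the 3 libraries low in Bmp10 (0.62, adjusted p = 0.143). Summed fibroblast markers were 2200 to 2720 CPM in R502W control hearts and 2310 to 2960 CPM in WT control hearts, with 1 of 12 called, lower. The log2 fold changes of the 12 ran from -0.36 to 0.43, with a median of -0.14. Here and below, most of this sum was 1 gene, Gsn. It averaged 1615 CPM in R502W mavacamten hearts, 1644 CPM in R502W control hearts and 1959 CPM in WT control hearts. Endothelial markers summed to 1210 to 1440 CPM in R502W control hearts and 1110 to 1340 CPM in WT control hearts, with 2 of 10 called, both higher. Mesothelial and epicardial markers summed to 48.6 to 103 CPM in R502W control hearts and 73.6 to 213 CPM in WT control hearts, with 0 of 7 called. All 7 were below 0, at log2 -1.05 to -0.38 with a median of -0.88. Mural markers summed to 981 to 1100 CPM in R502W control hearts and 645 to 1120 CPM in WT control hearts, with 2 of 9 called, Cspg4 (log2 0.66) and Notch3 (0.56), both higher. Cardiomyocyte markers summed to 64900 to 74300 CPM in R502W control hearts and 44800 to 65700 CPM in WT control hearts, with 2 of 9 called, Ttn (0.98) and Ryr2 (0.86), both higher. Of the 7 not called, Myh6 (0.50), Actc1 (0.35) and Myl3 (0.15) were above 0. Tnni3 (-0.32), Pln (-0.19), Myl2 (-0.14) and Tnnt2 (-0.10) were below 0. The part of these cell types in the Tgfb2 difference was not tested.

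The start regions of the called ligand and of the pathway's best known ligand, Tgfb1, are shown because Tgfb2 was called and Tgfb1 was not; the difference between the 2 genes was not tested. Each is the RefSeq window of GRCm38.p6 from 250 bases before to 50 bases after the gene's start, 5′ to 3′ on the gene's strand, with capitals for the letters of the motifs found.
Tgfb2, chr1:186705940-186706239, minus strand: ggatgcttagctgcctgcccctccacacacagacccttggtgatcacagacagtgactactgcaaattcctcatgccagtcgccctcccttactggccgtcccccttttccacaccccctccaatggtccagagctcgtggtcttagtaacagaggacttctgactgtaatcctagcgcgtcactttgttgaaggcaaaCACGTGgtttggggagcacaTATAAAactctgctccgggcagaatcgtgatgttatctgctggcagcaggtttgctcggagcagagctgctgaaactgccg
Tgfb1, chr7:25686752-25687051, plus strand: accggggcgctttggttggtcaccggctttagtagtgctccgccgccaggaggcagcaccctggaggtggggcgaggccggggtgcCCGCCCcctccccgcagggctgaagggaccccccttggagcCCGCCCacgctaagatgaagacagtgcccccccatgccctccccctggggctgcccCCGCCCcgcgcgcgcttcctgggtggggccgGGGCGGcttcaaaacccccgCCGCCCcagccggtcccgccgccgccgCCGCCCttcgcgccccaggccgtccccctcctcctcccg
In the Tgfb2 window the capitals are an E-box, CACGTG, starting at position -51 from the gene's start and a TATA box, TATAAA, starting at position -31. In the Tgfb1 window they are 6 GC boxes (GGGCGG, or CCGCCC on the other strand), with no TATA box. G and C made up 54.3% of the Tgfb2 window and 77.0% of the Tgfb1 window, against a median of 52.7% over 32851 windows. Both strands were searched for 6 motifs, which could overlap one another. An E-box stood in 7.15% of all windows, TATAAA in 13.6% and a GC box in 35.7%, and the 3 others were the cAMP response element TGACGTCA (1.79%), the AP-1 site TGANTCA (7.81%) and the palindromic SMAD element GTCTAGAC (0.213%). A match describes these letters and is not evidence of binding. RefSeq windows were matched for 8 of the 10 genes.

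Tgfb1 and Tgfb3 did not pass the test between genotypes. Tgfb1 (chromosome 7, 25687002 to 25705077), the ligand most often tied to fibrosis, had 25.1, 23.4, 35.2 and 26.4 CPM in R502W control hearts, against 25.3, 33.2, 26.1, 22.9 and 27.1 CPM in WT control hearts. The groups covered almost the same range, and the fold change was 1.02 with a 95% interval of 0.832 to 1.26. Tgfb3 (chromosome 12, 86056745 to 86079041) had 27.5, 32.4, 26.8 and 22.2 CPM in R502W control hearts, against 19.2, 25.1, 29.0, 27.3 and 25 CPM in WT control hearts. Its fold change was 1.08, with an interval of 0.875 to 1.34.

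Neither receptor passed the test between genotypes, and both fold changes were above 1. Tgfbr2 (chromosome 9, 116084293 to 116175360), which binds ligand first, had 95.2, 91.7, 92.0 and 80.9 CPM in R502W control hearts, against 59.4, 60.5, 86.0, 80.5 and 88.8 CPM in WT control hearts. WT control replicates 1 and 2 lay well below the other WT libraries, and the groups overlapped. Its log2 difference was 0.26 ± 0.13, with an edgeR adjusted p of 0.187, and 0.16 without either of those libraries. Tgfbr1 (chromosome 4, 47353222 to 47414931), the signalling kinase, had 23.7 to 25.1 CPM in R502W control hearts and 17.2 to 25.2 CPM in WT control hearts. Its log2 difference was 0.19 ± 0.11, with an edgeR adjusted p of 0.261.

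Of the latent binders, Ltbp2 and Ltbp4 lay higher in every R502W control library than in any WT control library, and neither was called. Ltbp2 (chromosome 12, 84783212 to 84876532), which unlike the other LTBPs does not bind latent TGF-beta, had 25, 21.6, 21.8 and 15.9 CPM in R502W control hearts, against 6.97, 9.66, 14.9, 12.3 and 15.3 CPM in WT control hearts. The lowest R502W control library was just above the highest WT control library. Its log2 difference of 0.83 ± 0.35 was the largest of the 10 and also had the widest SE, with an edgeR adjusted p of 0.134. It was called when R502W mavacamten libraries were left out of the fit, with a log2 fold change of 0.83 and an adjusted p of 0.0344, within a range of 0.0344 to 0.291 over all alternatives. Ltbp4 (chromosome 7, 27305136 to 27337692), an organiser of elastic fibres, had 612, 658, 610 and 634 CPM in R502W control hearts, against 440, 515, 543, 549 and 587 CPM in WT control hearts. The R502W control libraries were tightly grouped, and the log2 difference was 0.26 ± 0.10, with an edgeR adjusted p of 0.123.

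Ltbp1 and Ltbp3 showed no called difference between genotypes. Ltbp1 (chromosome 17, 75005568 to 75392512), a main carrier of latent TGF-beta 1, had 61.5 to 71.5 CPM in R502W control hearts and 38.5 to 92.0 CPM in WT control hearts. Its lowest value was that of WT control replicate 2, a library high in lymphocyte, thymus and airway markers. There Tgfb1 was highest among WT control libraries at 33.2 CPM. Of the 9 measured lymphocyte markers 1 was called, lower in R502W control hearts, and the 10 listed markers summed to 6.95 to 9.47 CPM in R502W control hearts and 6.01 to 384 CPM in WT control hearts. The part of these marker lists in the Ltbp1 and Tgfb1 values was not tested. Without WT control replicate 2 the log2 fold change of Ltbp1 was -0.27, against -0.08 ± 0.20 with it. Ltbp3 (chromosome 19, 5740904 to 5758532) had 79.9 to 94.5 CPM in R502W control hearts and 58.9 to 96.6 CPM in WT control hearts, a log2 difference of 0.06 ± 0.15 that turned to -0.11 with length trends removed. No source used here says whether counting used strand. D030025P21Rik, which shares 764 exonic bases with Ltbp2 on the opposite strand, was at most 0.105 CPM.

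Smad7 (chromosome 18, 75367529 to 75395935), the feedback inhibitor, had 14.4, 22.1, 19.1 and 26.5 CPM in R502W control hearts, against 23.8, 20.1, 19.3, 23.6 and 24.1 CPM in WT control hearts. The R502W control libraries lay on both sides of the WT control range. The log2 difference was -0.11 ± 0.16, with an edgeR adjusted p of 0.680, and the 95% interval of the fold ran from 0.736 to 1.17.

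**Figure D2:**
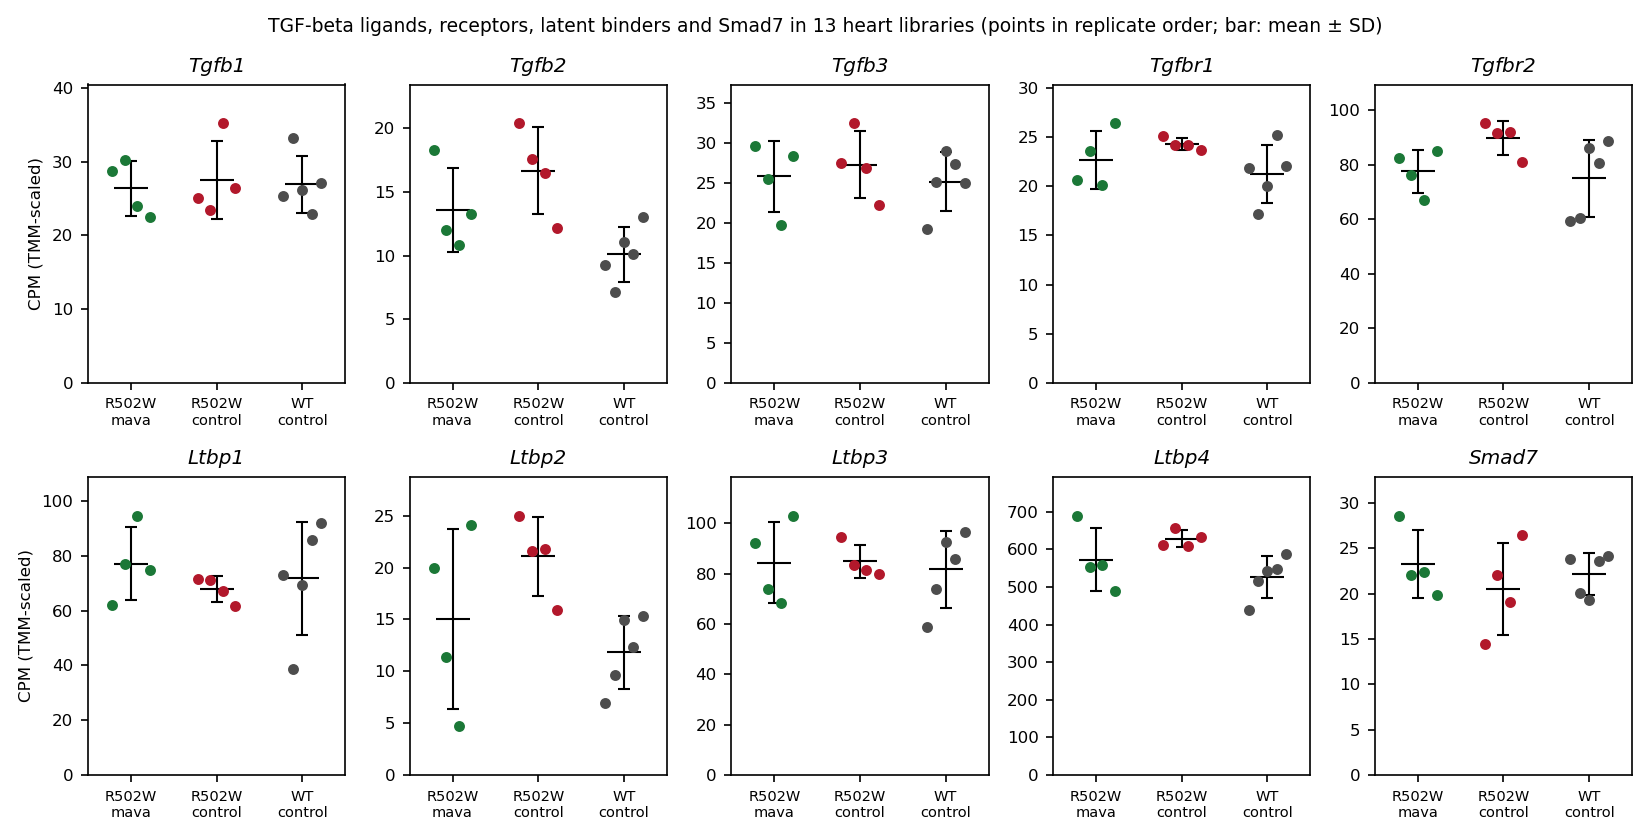
CPM of the 10 genes in each library, with mean and SD, for R502W mavacamten, R502W control and WT control hearts (each panel has its own axis starting at 0). Ltbp2 and Ltbp4 have no overlap between R502W control and WT control libraries, while Tgfb2 overlaps through 1 R502W control library at 12.2 CPM.

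The treatment comparison asked how R502W mavacamten hearts differed from R502W control hearts, and none of the 10 genes was called. Nor was any of the 15000 genes (0% of all genes) by edgeR, while 525 had an unadjusted p under 0.05, and DESeq2 called 6 genes. Groups did not overlap for 2.87% of all genes and for none of the 10. The fold change of 8 of the 10 was below 0, with a median log2 of -0.09 against 0.00 over all genes, of which 49.2% were below 0. No member had an unadjusted p under 0.05, against 3.5% of all genes. These fold changes share the R502W control libraries with the genotype comparison, so a value above 0 there and below 0 here is not independent information.

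Tgfb2 had 18.3, 12, 10.8 and 13.3 CPM in R502W mavacamten hearts, against 20.4, 17.6, 16.5 and 12.2 CPM in R502W control hearts. Here 2 treated libraries lay below every untreated one and the other 2 inside their range. The log2 fold change was -0.29 ± 0.20, and the 95% interval of the fold ran from 0.605 to 1.11. The log2 value was -0.47 without R502W mavacamten replicate 1, -0.18 without R502W mavacamten replicate 3 or R502W control replicate 1, and -0.07 without the 3 libraries low in Bmp10. Tgfbr2 had 82.4, 76.1, 67.1 and 85.0 CPM in R502W mavacamten hearts, against 95.2, 91.7, 92.0 and 80.9 CPM in R502W control hearts. Here 2 treated libraries were below every untreated one, and the fold was 0.864 (0.708 to 1.05). Ltbp4 had 690, 553, 559 and 490 CPM in R502W mavacamten hearts, against 612, 658, 610 and 634 CPM in R502W control hearts, so that 3 treated libraries lay below all untreated ones and replicate 1 above them. Its fold was 0.912 (0.774 to 1.07).

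Ltbp2 was the most variable member in treated hearts. It had 20.0, 11.4, 4.74 and 24.1 CPM in R502W mavacamten hearts, against 25, 21.6, 21.8 and 15.9 CPM in R502W control hearts. Its coefficient of variation was 57.6% in R502W mavacamten hearts, against 17.9% in R502W control hearts, and at most 24.3% for any other member in the treated group. The fold was 0.719, with an interval from 0.416 to 1.25. Single libraries moved its log2 value of -0.48 by over 1.5 times, to -0.17 without R502W mavacamten replicate 3 and to -0.79 without R502W mavacamten replicate 4, and it was -0.08 without the 3 libraries low in Bmp10. In the same order of R502W mavacamten libraries, the 12 fibroblast markers summed to 2651, 2099, 1982 and 2499 CPM, lowest where Ltbp2 was lowest, with 0 of 12 called and none at 0 counts in any library. In R502W mavacamten replicate 3, atrial (3187 CPM) and macrophage markers (348 CPM) were also lowest of the treated group, and mural markers were highest (1169 CPM). Over R502W mavacamten replicates 1 to 4, cardiomyocyte markers summed to 59860, 82780, 81730 and 60560 CPM, higher where Ltbp2 was lower. Adipocyte markers summed to 203.3, 7.916, 13.74 and 735.6 CPM and lymphocyte markers to 14.74, 7.723, 8.285 and 27.41 CPM, lower where Ltbp2 was lower. Endothelial markers summed to 1194, 1232, 1206 and 1219 CPM. The part of these markers in the Ltbp2 values was not tested.

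For the remaining members the intervals of the treatment fold change were 0.772 to 1.19 for Tgfb1, 0.757 to 1.19 for Tgfb3, 0.788 to 1.11 for Tgfbr1 and 0.788 to 1.25 for Ltbp3. Ltbp1 and Smad7 were the 2 members above 1, at 1.14-fold (0.836 to 1.54) and 1.13-fold (0.888 to 1.44). None of these intervals leaves out a fold of 1, and a missing call does not show that treated and untreated hearts were alike.

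R502W mavacamten hearts were also set against WT control hearts, where again none of the 10 was called, against 8.21% of all genes (5.93% higher and 2.29% lower). Of all calls 72.2% were higher, against 61.8% with RLE and 56.3% with upper quartile scaling. Groups did not overlap for 12.3% of all genes and for none of the 10. Tgfb2 averaged 13.6 ± 3.31 CPM in R502W mavacamten hearts and 10.1 ± 2.19 CPM in WT control hearts. The log2 difference was 0.43 ± 0.19, with an edgeR adjusted p of 0.181, and it was 0.22 without R502W mavacamten replicate 1. It was the 1 member with an unadjusted p under 0.05, against 25.8% of all genes. Ltbp2 averaged 15.04 ± 8.66 CPM in R502W mavacamten hearts and 11.8 ± 3.53 CPM in WT control hearts, a log2 fold change of 0.35 ± 0.35. It ran from 0.00 without R502W mavacamten replicate 4 to 0.63 without R502W mavacamten replicate 3, and was 0.16 without R502W mavacamten replicate 1, 0.20 without WT control replicate 1 and 0.73 without the 3 libraries low in Bmp10. The other 8 fold changes lay between 0.980 and 1.09, and the median log2 over the 10 was 0.08 against 0.00 over all genes. This comparison shares its WT control libraries with the genotype comparison and its treated libraries with the treatment comparison.

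**Figure D3:**
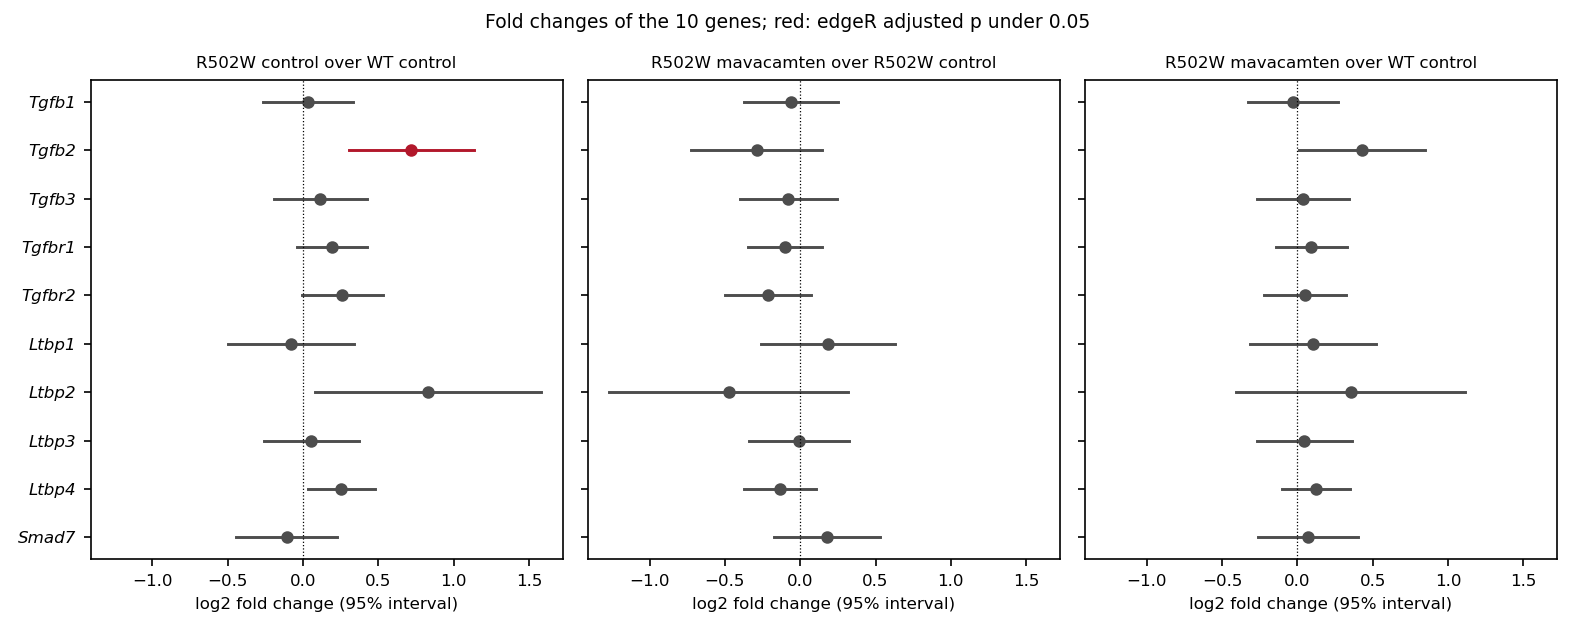
Log2 fold changes of the 10 genes with 95% intervals in the 3 comparisons, with the genotype comparison on the left and both mavacamten comparisons to its right. Tgfb2 in R502W control over WT control hearts (0.72) is the only point called, and the intervals of Ltbp2 are the widest in each panel.

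Within the groups, 7 of the 45 pairs of the 10 genes, all among 5 genes, varied together from library to library by Pearson r. How often pairs of other genes would pass was not measured, so this is not shown to be particular to these genes. Deviations of log2 CPM from the group mean were correlated for all 45 pairs, with p-values from 100000 permutations of libraries within groups and Benjamini-Hochberg adjustment over the 45. Tgfbr2 and Ltbp3 had a Pearson r of 0.886 and a Spearman rho of 0.929 (n = 13; two-sided permutation adjusted p = 3e-04 and 9e-04). Ltbp2 and Ltbp3 had an r of 0.876 and a rho of 0.934 (permutation adjusted p = 3e-04 and 0.00525), and Tgfbr2 and Ltbp2 an r of 0.784 and a rho of 0.901 (permutation adjusted p = 3e-04 and 9e-04). Without the 2 libraries farthest from the median of the first gene, these r were 0.886, 0.915 and 0.831. With each library's length trend removed they were 0.821, 0.869 and 0.795.

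Tgfb2 with Tgfbr2 reached an r of 0.78 and a rho of 0.753 (n = 13; permutation adjusted p = 0.014 and 0.0478; r = 0.759 without the 2 farthest libraries). Tgfb3 passed by r with Ltbp2 (0.823), Tgfbr2 (0.722) and Ltbp3 (0.746), with permutation adjusted p-values of 0.014, 0.0327 and 0.0459, but not by rho (adjusted p = 0.108, 0.154 and 0.108). Without the 2 farthest libraries these 3 values were 0.615, 0.496 and 0.441, so the relations of Tgfb3 rested in part on those libraries. Tgfb2 with Ltbp2 passed by rho (0.758, permutation adjusted p = 0.0478) and not by r (0.662, permutation adjusted p = 0.114). Tgfb1, Tgfbr1, Ltbp1, Ltbp4 and Smad7 entered none of the 7 pairs that passed by r. R502W mavacamten replicate 3, R502W control replicate 4 and WT control replicate 1 were each lowest of their group in all of Tgfbr2, Ltbp3 and Ltbp2. In summed fibroblast markers the first and the last of these were also lowest of their group (1982 and 2309 CPM), while R502W control replicate 4 was not (2374 CPM, against 2195 CPM in replicate 3). R502W mavacamten replicate 3 and WT control replicate 1 were also lowest of their group in summed atrial (3187 and 3964 CPM) and macrophage markers (348.2 and 439.5 CPM). R502W control replicate 4 was lowest of its group in neither (5253 and 442.5 CPM). The part of cell content in this co-variation was not tested.

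**Figure D4:**
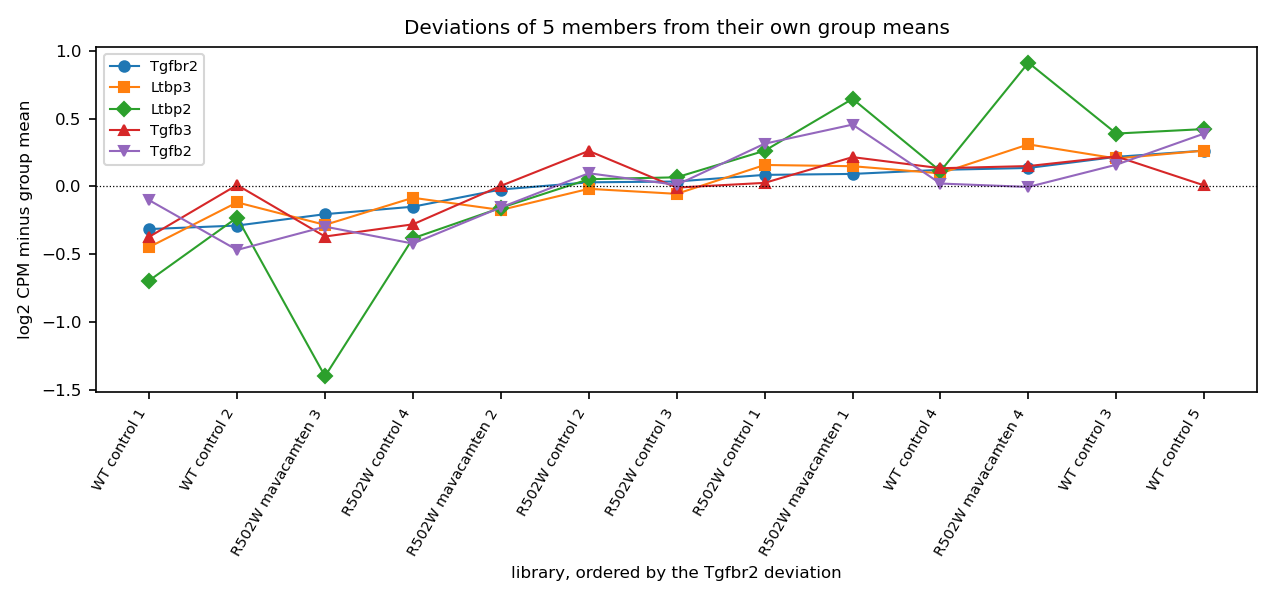
Deviation of log2 CPM from the group mean for Tgfbr2, Ltbp3, Ltbp2, Tgfb3 and Tgfb2 in the 13 libraries, ordered by the Tgfbr2 value (lines only guide the eye). The 5 genes lie mostly below 0 on the left and above 0 on the right, and Ltbp2 in R502W mavacamten replicate 3 is the lowest point at -1.40.

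The genes whose profile over the 13 libraries was most like that of Tgfb2 were Tox3 (Pearson r = 0.94, Spearman rho = 0.91), Fam198b (0.94 and 0.88) and Gpm6b (0.93 and 0.93), out of 13696 genes compared. After removing group means the r were 0.867, 0.867 and 0.9. Ltbp2 was most like Krt80 (0.955 and 0.94), Tbx15 (0.94 and 0.89) and Man2a1 (0.89 and 0.90), and Gm29331 (0.90 and 0.87) and Adamtsl2 (0.89 and 0.84) were among the 3 genes most like Ltbp4. These genes were picked as the highest of many, so the correlations carry no test.

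Around the 10 genes, several that store or release latent TGF-beta were higher in R502W control hearts. Of 20 latent TGF-beta activators and matrix anchors, 6 were higher in R502W control hearts and none lower, against 8.63% of all genes called higher and 3.75% lower. The list's median log2 fold change was 0.27, against -0.01 over all genes. This and the other pathway lists were chosen with earlier results of these data known, so their counts are descriptions only. Fbn1, the microfibril protein to which LTBPs attach, averaged 134 ± 15.3 CPM in R502W control hearts and 71.0 ± 21.6 CPM in WT control hearts (log2 0.92 ± 0.18; edgeR adjusted p = 0.00603). Its relative Fbn2 had 2.72 ± 0.63 CPM in R502W control hearts and 0.979 ± 0.489 CPM in WT control hearts (1.47 ± 0.36; edgeR adjusted p = 0.02).

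Among the activators of that list, Mmp14, a membrane protease that can free latent TGF-beta, averaged 32.5 ± 5.86 CPM in R502W control hearts and 20.1 ± 2.21 CPM in WT control hearts (log2 0.69 ± 0.12; edgeR adjusted p = 0.00331). Itgav, the alpha chain of the integrins that pull on the latent complex, rose by 0.62 ± 0.14 (edgeR adjusted p = 0.0123). Furin, which cleaves the ligand precursors, rose by 0.34 ± 0.08 (edgeR adjusted p = 0.0126). Emilin1, an elastic fibre protein that restrains ligand processing, rose by 0.66 ± 0.13 (edgeR adjusted p = 0.0058). The calls of Mmp14, Emilin1 and Fbn1 held with any 1 library left out. Those of Furin and Itgav ended without R502W control replicate 2 (lowest log2 values 0.26 and 0.48), and that of Fbn2 without R502W control replicate 2 or 3 (lowest 1.19). Without the 3 libraries low in Bmp10, Fbn1 (0.99) and Mmp14 (0.73) were called and Emilin1 (0.61), Itgav (0.60), Furin (0.34) and Fbn2 (1.54) were not.

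Of 22 SMADs and their regulators, 3 were called higher in R502W control hearts and 0 lower, a share near the 12.4% of all genes called. Smurf2, a ubiquitin ligase that works with Smad7 to remove receptors, rose by 0.44 ± 0.09 (edgeR adjusted p = 0.00807). Pmepa1, a TGF-beta induced inhibitor of SMAD activation, rose by 0.43 ± 0.11 (edgeR adjusted p = 0.0237), and its call ended without R502W control replicate 1 or 2 or WT control replicate 1 or 2. Zfyve9, the SMAD anchor for receptor activation, rose by 0.38 ± 0.11 (edgeR adjusted p = 0.0391). This call was lost in 10 of the 13 left-out runs (0.25 to 0.42), all but those without WT control replicates 2, 4 and 5. It was also lost under RLE (0.35) and upper quartile (0.33) scaling, and none of the 3 SMAD regulators was called without the libraries low in Bmp10.

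Of 13 co-receptors and related receptors 1 was called higher, a share near the 8.63% of all genes. It was the BMP type II receptor gene Bmpr2, with 92.0 ± 5.89 CPM in R502W control hearts and 61.7 ± 10.4 CPM in WT control hearts (log2 0.58 ± 0.12; edgeR adjusted p = 0.00826). This call ended without the 3 libraries low in Bmp10 (0.54). The co-receptor genes Tgfbr3 and Eng had log2 fold changes of 0.02 ± 0.16 and 0.10 ± 0.12. None of 16 measured other ligands and ligand traps was called, and the list's median was 0.00. In that list the values with the smallest p in any comparison were those of Bmp2 (0.67 ± 0.25 in R502W mavacamten over WT control hearts) and the proteoglycan Dcn (-0.27 ± 0.10 there), neither of which passed.

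Of 23 TGF-beta response genes, 5 rose and 2 fell in R502W control hearts, against 8.63% of all genes called higher and 3.75% lower. This list too was chosen with earlier results of these data known, and several of its genes also have other inputs. Cilp, a matrix protein made by activated cardiac fibroblasts, averaged 59.2 ± 19.5 CPM in R502W control hearts and 19.5 ± 7.09 CPM in WT control hearts (log2 1.61 ± 0.32; edgeR adjusted p = 0.0066). Cdkn1a, a cell cycle inhibitor, averaged 22.7 ± 0.48 CPM in R502W control hearts and 9.79 ± 1.73 CPM in WT control hearts (1.21 ± 0.18; edgeR adjusted p = 0.00137). The collagen genes Col1a1 (0.77 ± 0.16; edgeR adjusted p = 0.00892) and Col3a1 (0.64 ± 0.18; edgeR adjusted p = 0.0319) rose, as did the collagen cross-linking gene Loxl2 (0.45 ± 0.14; edgeR adjusted p = 0.0453), while Id1 (-0.45 ± 0.12; edgeR adjusted p = 0.0265) and Bhlhe40 (-0.48 ± 0.14; edgeR adjusted p = 0.0341) fell.

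Other much used readouts of the pathway did not pass: Ccn2 had a log2 fold change of -0.01 ± 0.27, Postn of 0.44 ± 0.24 and Acta2 of -0.72 ± 0.39. These 3, with Tgfbr3, Eng and Loxl2, were picked after their values were seen. The calls of Cilp, Cdkn1a and Col1a1 held with any 1 library left out, and of the 7 they alone held without the 3 libraries low in Bmp10. That of Loxl2 ended in 10 of 13 left-out runs (0.33 to 0.53), all but those without R502W control replicate 4 or WT control replicates 4 or 5. That of Col3a1 ended in 6 of 13 left-out runs (0.48 to 0.75): without R502W mavacamten replicate 2, R502W control replicates 1, 2 or 3, or WT control replicates 2 or 4. That of Id1 ended in 4 (-0.53 to -0.33), without R502W control replicates 1, 2 or 3 or WT control replicate 3. That of Bhlhe40 ended in 7 (-0.60 to -0.43), without R502W control replicates 1, 2 or 3 or WT control replicates 1, 3, 4 or 5.

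In the treatment comparison none of the genes on these 5 lists was called, as for all genes. Cilp averaged 31.4 ± 13.7 CPM in R502W mavacamten hearts and 59.2 ± 19.5 CPM in R502W control hearts, a log2 fold change of -0.91 ± 0.33 with an adjusted p of 1. In R502W mavacamten over WT control hearts, 4 of 20 activators and anchors were higher, Fbn2 (1.76 ± 0.36), Fbn1 (0.80 ± 0.18), Itgav (0.58 ± 0.14) and Mmp14 (0.53 ± 0.12), against 5.93% of all genes. Bmpr2 (0.54 ± 0.12) and Cdkn1a (1.04 ± 0.18) were also higher and Bhlhe40 (-0.58 ± 0.14) lower. With any 1 library left out the call of Cdkn1a held, and of these 7 it alone held without the 3 libraries low in Bmp10 (1.22). Those of Fbn1 and Fbn2 ended without R502W mavacamten replicate 2, those of Mmp14 and Bhlhe40 without R502W mavacamten replicates 1 or 2, and that of Bmpr2 without R502W mavacamten replicates 2 or 3. That of Itgav ended without any 1 of the 4 treated libraries or WT control replicate 1.

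Longer genes tended to have higher fold changes against WT control hearts. The Spearman correlation of log2 fold change with exonic length was 0.34 over 14990 genes for R502W control hearts and 0.36 for R502W mavacamten hearts, and genes are not independent. With each library's length trend removed, Tgfb2 stayed called in the genotype comparison (0.67, adjusted p = 0.0428). The calls of Bmpr2 (0.24), Furin (0.17), Zfyve9 (0.30), Col3a1 (0.45), Id1 (-0.29), Loxl2 (0.41) and Bhlhe40 (-0.50) in that comparison ended. In R502W mavacamten over WT control hearts the calls of Bmpr2 (0.20), Itgav (0.37), Mmp14 (0.46) and Fbn1 (0.57) ended, and those of Fbn2, Cdkn1a and Bhlhe40 held.

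**Figure D5:**
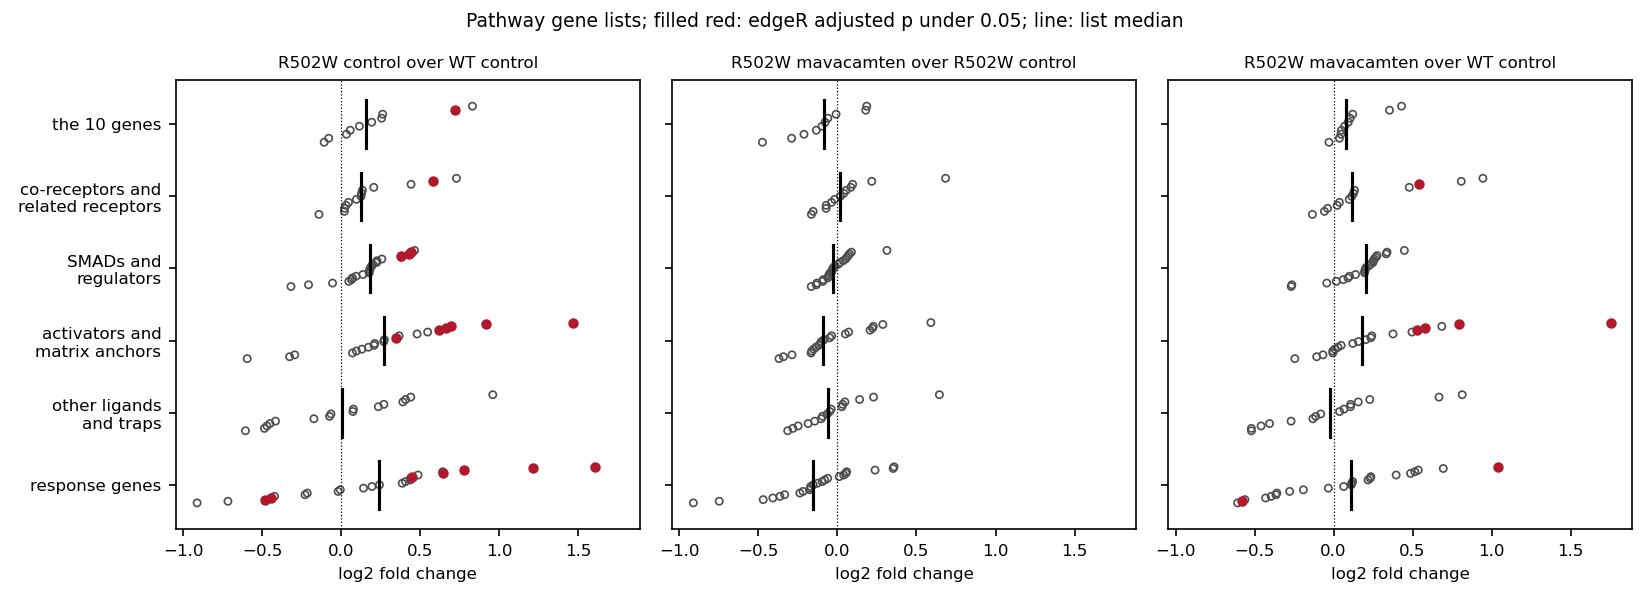
Log2 fold changes of the 10 genes and of the measured genes of 5 pathway lists in the 3 comparisons, with filled red points for called genes and a line at each list's median. The activators and matrix anchors hold 6 called genes in R502W control over WT control hearts, and no point is filled in R502W mavacamten over R502W control hearts.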

How the data were processed

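Poly(A)-selected, strand-specific libraries of whole mouse hearts were sequenced, per the labels' protocols. The authors deposited expected counts per Ensembl gene, estimated with RSEM on GRCm38 per the submitters' processing notes, which also name cutadapt, FastQC and DESeq2; their versions, the aligner and the strand setting are not given in the sources used here. Of the values 5.8% were fractional. Symbols, coordinates and exonic lengths came from GENCODE M21 of GRCm38 by gene ID (55230 of 55471 matched).

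Libraries were grouped by the labels' genotype and treatment. No pair within a group agreed within sampling noise (22 pairs, chi-square per degree of freedom 7.31 to 103.3). After rounding, edgeR 4.0.16 (R 4.3.3) was run with filterByExpr (minimum count 10, total 15), TMM factors, 1 mean per group over all 13 libraries, quasi-likelihood tests and Benjamini-Hochberg adjustment over all genes tested. Levels are CPM on TMM-scaled totals, log2 fold changes are estimate ± SE, and intervals are 95% with the model's degrees of freedom. The code was tested on simulated data. Alternatives were RLE and upper quartile factors, no filter, DESeq2 1.42.0, fits of 2 groups, a replicate block, removal of length trends and each library left out; leaving out the 3 libraries low in Bmp10 was chosen after seeing the data.

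The members and lists were chosen with earlier results of these data known. Named were all 10 members, up to 6 called genes of each list by adjusted p (otherwise the 2 with the smallest p), and for the 3 members with the smallest p the 3 tested genes of at least 1 CPM with the highest correlation. Some items that these rules would name are not reported here. The highest markers of the cell type lists were Gsn (fibroblast), Fabp4 (endothelial), Rgs5 (mural), Lyz2 (macrophage), Lck (lymphocyte), Cd1d1 (thymus), Cfd (adipocyte), Myh6 (cardiomyocyte), Nppa (atrial), Upk3b (mesothelial) and Scgb1a1 (airway). Group ranges of summed markers not given above for R502W control and WT control hearts were as follows. Macrophage markers summed to 417 to 566 CPM in R502W control hearts and 440 to 678 CPM in WT control hearts, adipocyte markers to 4.50 to 500 and 18.0 to 744 CPM, atrial markers to 4350 to 8490 and 3960 to 8540 CPM, airway markers to 0.281 to 1.45 and 1.39 to 562 CPM (2 of 2 measured markers called, lower), and thymus markers to 2.36 to 12.1 and 3.81 to 192 CPM, in the same order of groups.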

Additional observations from a re-analysis of the deposited data

How the results depend on the processing

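In R502W control over WT control hearts, genes called numbered 963 with a replicate block, 971 with length trends removed, 405 with both and 404 without the 3 libraries low in Bmp10 (an alternative chosen after seeing the data), against 1856 as reported, and 866 to 1870 with 1 library left out. Members called there numbered 2 with only the 2 groups fitted (Tgfb2 and Ltbp2), 0 without the libraries low in Bmp10 and 0 to 1 with 1 library left out, against 1. In R502W mavacamten over R502W control hearts DESeq2 called 6 genes, against 0. In R502W mavacamten over WT control hearts, genes called numbered 740 without a filter, 216 with only the 2 groups fitted, 349 with the block, 434 with length trends removed, 66 with both and 86 without the libraries low in Bmp10, against 1232, and 359 to 1213 with 1 library left out. Replicate numbers did not pair the libraries: 1 of 12 same-number pairs had a correlation of deviations over 0.1 (-0.323 to 0.253) and 0 of 12 libraries correlated best with their own number. With the block, 12 of 18 named calls held in R502W control over WT control hearts (those of Fbn2, Furin, Pmepa1, Zfyve9, Col3a1 and Id1 ended), and 2 of 7 in R502W mavacamten over WT control hearts (those of Cdkn1a, Bmpr2, Fbn2, Itgav and Mmp14 ended). Of 660 member values under alternatives, 600 kept direction and side of the threshold and 53 turned, of which 0 had been called.

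Turned log2 values in R502W control over WT control hearts were -0.029 (Tgfb1) and -0.001 (Ltbp3) with upper quartile scaling, 0.058 (Ltbp1) with the block, and, for Ltbp3, -0.109 with length trends removed and -0.051 with both. In R502W mavacamten over WT control hearts they were -0.021 (Tgfb3), -0.007 (Tgfbr2) and -0.01 (Ltbp3) with upper quartile scaling, -0.089 (Tgfbr2), -0.091 (Ltbp1) and -0.123 (Ltbp3) with length trends removed, -0.024 (Tgfbr2) and -0.071 (Ltbp3) with block and length, and -0.035 (Ltbp1) without the libraries low in Bmp10. In R502W mavacamten over R502W control hearts they were 0.005 (Ltbp3) with 2 groups fitted and 0.051 (Tgfb3), 0.151 (Ltbp3), 0.014 (Pmepa1) and -0.078 (Id1) without the libraries low in Bmp10. The causes were not tested.

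With 1 library left out, log2 values that turned ranged in R502W control over WT control hearts -0.105 to 0.086 for Tgfb1, -0.064 to 0.123 for Ltbp3, -0.272 to 0.025 for Ltbp1, -0.254 to 0.029 for Smad7 and -0.011 to 0.204 for Tgfb3. The same runs gave in R502W mavacamten over R502W control hearts -0.121 to 0.094 for Ltbp3, -0.061 to 0.135 for Id1, -0.164 to 0.046 for Tgfb3, -0.07 to 0.009 for Bmpr2, -0.11 to 0.059 for Itgav, -0.132 to 0.079 for Tgfb1 and -0.207 to 0.002 for Bhlhe40. They gave in R502W mavacamten over WT control hearts -0.068 to 0.13 for Tgfb3, -0.05 to 0.117 for Tgfbr2, -0.098 to 0.121 for Ltbp3, -0.119 to 0.026 for Tgfb1, -0.023 to 0.162 for Tgfbr1, -0.085 to 0.21 for Ltbp1, -0.006 to 0.193 for Loxl2, -0.013 to 0.163 for Ltbp4 and -0.077 to 0.107 for Smad7. With 4 libraries a group, the members' treatment folds have 95% bounds from 0.416 to 1.54.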
